A study of Mus musculus with 10 samples.

Results

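The 7 mouse genes that encode NMDA receptor subunits were examined in RNA from hippocampal synaptoneurosomes: Grin1, Grin2a, Grin2b, Grin2c, Grin2d, Grin3a and Grin3b. They were chosen by symbol, matched through the Ensembl identifier without its version, and all 7 were found among the 22255 genes of the gene table. The 14 annotated Grin1 transcripts were read from the accompanying table of 102392 transcripts. Synaptoneurosomes are a tissue fraction enriched in pinched-off nerve endings with their attached postsynaptic compartments, so the measurement is of RNA in that fraction and not of whole hippocampus. All mice were wild-type C57Bl/6J. 5 libraries came from mice given vehicle and 5 from mice given AM6545 sub-chronically, and the comparison asks whether RNA levels in this fraction differ after the drug. AM6545 is a neutral antagonist of the CB1 cannabinoid receptor with restricted entry into the brain. No dose, age or sex is given in the labels used here. The labels also do not say whether a library is 1 animal or a pool, so the spread between libraries may be partly technical.

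NMDA receptors are glutamate-gated channels that open only when glutamate and a coagonist, glycine or D-serine, are bound and depolarization has removed a magnesium block. Each channel needs the obligatory GluN1 subunit, made from Grin1, which binds the coagonist. The GluN2 subunits bind glutamate and set the channel's kinetics, and GluN3 subunits lower its calcium permeability. In the adult hippocampus the GluN2A and GluN2B subunits are the main partners, and calcium entering through these channels triggers synaptic plasticity.

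Grin1 transcripts differ by known protein cassettes, and the sequences of those cassettes are shown because the splice measurements rest on them. In GENCODE M21 (GRCm38, the build that the submitters' notes call mm10) the gene lies on the minus strand of chromosome 2, from 25291181 to 25319187. The N1 cassette is an exon of 63 bases (21 residues, chr2:25311343-25311405) in the extracellular amino-terminal domain, known for changing the channel's sensitivity to protons and zinc. The C1 cassette is an exon of 111 bases (37 residues, chr2:25294438-25294548) in the cytoplasmic tail, known for an endoplasmic reticulum retention signal and protein kinase C sites. The tail ends in either C2 (114 coding bases before the stop codon, chr2:25292371-25292484) or further downstream, through a different splice acceptor, C2' (66 coding bases, chr2:25292063-25292128), which carries a PDZ-binding end that favours export to the surface. Each sequence below reads 5′ to 3′ on the coding strand. Capitals mark the cassette (for C2' only its first 18 bases), and the lower-case letters are the 12 flanking bases that the transcript joins to it, on both sides of N1 and C1 and before C2 and C2'.
N1: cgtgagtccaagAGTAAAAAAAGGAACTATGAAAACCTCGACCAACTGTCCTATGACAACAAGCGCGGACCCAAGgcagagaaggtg
without N1: cgtgagtccaaggcagagaaggtg
C1: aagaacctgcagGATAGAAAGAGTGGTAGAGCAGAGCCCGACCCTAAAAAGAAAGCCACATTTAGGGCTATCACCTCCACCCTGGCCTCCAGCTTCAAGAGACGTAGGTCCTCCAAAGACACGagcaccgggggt
C2: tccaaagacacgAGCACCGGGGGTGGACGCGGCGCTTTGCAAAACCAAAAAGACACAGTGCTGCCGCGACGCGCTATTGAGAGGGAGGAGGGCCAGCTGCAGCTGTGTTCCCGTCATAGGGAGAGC
C2' start: tccaaagacacgCAGTACCATCCCACTGAT

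Library totals ran from 18106112 to 25899794 estimated counts. The other members lie, in the same build, at chr16:9567898-9995560 (Grin2a, ENSMUSG00000059003.13), chr6:135713233-136173511 (Grin2b, ENSMUSG00000030209.15), chr11:115249169-115267243 (Grin2c, ENSMUSG00000020734.14), chr7:45831883-45878378 (Grin2d, ENSMUSG00000002771.13), chr4:49661611-49845744 (Grin3a, ENSMUSG00000039579.16) and chr10:79970715-79977190 (Grin3b, ENSMUSG00000035745.10), and Grin1 is ENSMUSG00000026959.14. The share of a gene's 31-base words that also occur in other genes was 27.02% for Grin3b, 12.15% for Grin2a, 10.7% for Grin1 and 8.65% for Grin2d, and at most 1.38% for the other 3, so reads from those stretches could be split between genes. 6 of the 7 members passed the filter on low counts, as did 14358 genes of the whole table, and Grin3b did not. Markers of excitatory neurons, summarised as the mean log2 CPM of the list (CPM being counts scaled to library size), ran from 6.88 to 7.16 over the vehicle libraries and from 6.90 to 7.12 over the AM6545 libraries. Glial RNA was present in the fraction too: astrocyte markers ran from 8.06 to 8.46 and oligodendrocyte markers from 8.16 to 9.23 over all libraries. The choroid plexus list was at 0.796 in vehicle 4 and between 3.67 and 5.86 in the other libraries, so the libraries differed in that tissue's RNA. The group difference passed the test for 0 of 9 marker lists (exact permutation p of 0.460 or more for each). Less RNA per cell cannot be told apart from fewer cells in such bulk samples.

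No subunit gene passed the test for a difference between AM6545 and vehicle. Over all tested genes, 0 of 14358 (0.0%) had an edgeR quasi-likelihood adjusted p under 0.05, and 270 genes (1.88%) had an unadjusted p under 0.05. Of the 6 members tested, 4 had a log2 fold change above 0, and the median over the 6 was 0.06, beside -0.01 over all tested genes, of which 6906 were above 0. Grin2d alone of the 6 had an unadjusted p under 0.05, and the adjusted p was 0.9998 for each. The ranges of the 2 groups overlapped for all 6, while 42 of the tested genes (0.293%) had groups that did not overlap.

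Grin1 had 97.6, 153, 158, 161 and 157 CPM in vehicle 1 to 5, and 166, 122, 174, 178 and 130.4 CPM in AM6545 1 to 5. Vehicle 1 stood below every other library, and 3 AM6545 libraries were above all vehicle libraries. The means were 145 ± 26.8 and 154 ± 25.8 CPM (SD, n = 5 each). The log2 fold change was 0.08, its standard error (SE) was 0.143 (edgeR, adjusted p = 0.9998), and its 95% interval of -0.22 to 0.39 corresponds to a 0.859- to 1.31-fold level. Without vehicle 1 it was -0.03, so this library sets the direction. Vehicle 1 also held the lowest excitatory-neuron marker level (6.88) and the highest interneuron level (5.95, beside 5.43 to 5.76 elsewhere); their part in its Grin1 value was not tested. An exon of Grin1os overlaps Grin1 on the opposite strand, and the use of strand in counting is not given in the sources used here. No level of Grin1os is given in these data.

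Grin2a, whose subunit gives fast-closing channels and becomes common as synapses mature, had 188, 190.0, 242, 244 and 214 CPM in vehicle 1 to 5. In AM6545 1 to 5 it had 203, 197, 225, 201 and 143 CPM. Only AM6545 5 lay below all vehicle libraries, and the remaining 4 lay within their range. The log2 fold change was -0.15 (SE 0.122, interval -0.41 to 0.10; edgeR, adjusted p = 0.9998), and -0.06 without AM6545 5. Grin2b encodes the slower-closing GluN2B, which binds CaMKII tightly. It had 200.3, 172, 206, 224 and 190.4 CPM in vehicle 1 to 5 and 189, 199.6, 214, 206 and 136 CPM in AM6545 1 to 5. Again AM6545 5 was the one library below the vehicle range. The Grin2b log2 fold change was -0.07 (SE 0.120, interval -0.33 to 0.18), and without AM6545 5 it was 0.02.

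Grin2c, known from cerebellar granule cells and astrocytes, was a low member. Its level was 8.69, 12.6, 14.6, 12.6 and 12.7 CPM in vehicle 1 to 5 and 12.9, 11.6, 14.3, 11.8 and 12.2 CPM in AM6545 1 to 5. All 5 AM6545 libraries fell inside the vehicle range. The log2 fold change was 0.03 (SE 0.132), and its interval of -0.24 to 0.31 bounds the change at 0.845- to 1.24-fold. Without vehicle 1 it was -0.07. Exons of the unnamed gene models Gm25837 (Grin2c) and Gm14329, Gm22892 and Gm26653 (Grin2b) overlap these members on the opposite strand. The data hold no level for any of these gene models.

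Grin2d, which in the hippocampus is known mainly from interneurons and gives very slowly closing channels, showed the largest difference of the 6 tested genes. It had 6.41, 6.49, 6.95, 6.18 and 5.70 CPM in vehicle 1 to 5 and 7.46, 5.94, 9.86, 9.20 and 7.22 CPM in AM6545 1 to 5. AM6545 2 lay within the vehicle range and the other 4 AM6545 libraries lay above it. The log2 fold change was 0.32 (SE 0.146) and an interval of 0.02 to 0.63, or 1.01- to 1.55-fold (edgeR, unadjusted p = 0.0404, adjusted p = 0.9998). At that unadjusted level 164 of 14358 genes (1.14%) were higher in AM6545. Leaving out AM6545 3 gave 0.24 (unadjusted p = 0.126, edgeR) and leaving out AM6545 4 gave 0.26 (unadjusted p = 0.113), and over all 10 such omissions that p ran from 0.00943 to 0.126.

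Other measures moved with Grin2d. Its longest transcript was 65.0% G and C, above 99.6% of the tested genes. The rank correlation, across genes, of a library's deviation with G and C content was 0.157, 0.142 and 0.139 in AM6545 1, 3 and 4, the 3 libraries with most Grin2d. It was -0.225 in AM6545 2 and -0.007 in AM6545 5, and in the vehicle libraries it was 0.172 in vehicle 1 and -0.186 to -0.061 in the other 4. Vehicle 1, with the highest of these values, had 6.41 CPM of Grin2d, in the middle of its group. Over all libraries, these values and log2 CPM of Grin2d had Pearson's r = 0.723. For the other tested members that r ran from -0.234 (Grin2c, 62.1% G and C) to 0.127 (Grin3a, 49.2%). For Grin1 (59.4%) it was 0.046. Astrocyte markers were highest in AM6545 3, 1 and 4 (8.46, 8.33 and 8.30 mean log2 CPM) and ran from 8.06 to 8.29 in the other libraries. The list of 6 oligodendrocyte precursor genes was highest in AM6545 3 and 4 (4.75 and 4.65 mean log2 CPM) and ran from 4.21 to 4.50 in the other 8 libraries. Interneuron markers ran from 5.54 to 5.76 in AM6545 and from 5.43 to 5.95 in vehicle libraries (exact permutation p = 0.929). The part of base composition or of these cell types in the Grin2d difference was not tested. On the other strand, Gm45441, whose level is not given in these data, has an exon that overlaps Grin2d.

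Grin3a, whose GluN3A subunit is known for restraining synapse maturation early in life, had 22.3, 26.7, 26.7, 29.7 and 27.0 CPM in vehicle 1 to 5. It had 28.8, 25.6, 30.9, 29.9 and 25.1 CPM in AM6545 1 to 5. Vehicle 1 was the lowest library and 2 AM6545 libraries were above the vehicle range. The log2 fold change was 0.08 (SE 0.103, interval -0.13 to 0.30; edgeR, adjusted p = 0.9998); it was 0.03 without vehicle 1 and 0.05 without AM6545 3. Grin3b, known mainly from motor neurons, had 26.0 estimated counts over all 10 libraries. It had 2 to 6 counts in each vehicle library, 2 in AM6545 1, 6 in AM6545 3 and 0 in AM6545 2, 4 and 5. A count of 0 allows up to 3 counts, or 0.125 to 0.155 CPM in those 3 libraries, and with so few counts the gene was not tested on its level. Grin3b overlaps exons of Tmem259 on the opposite strand, which had 25.4 ± 2.75 CPM in vehicle libraries (SD, n = 5), so even these few counts may belong to either gene.

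**Figure D1:**
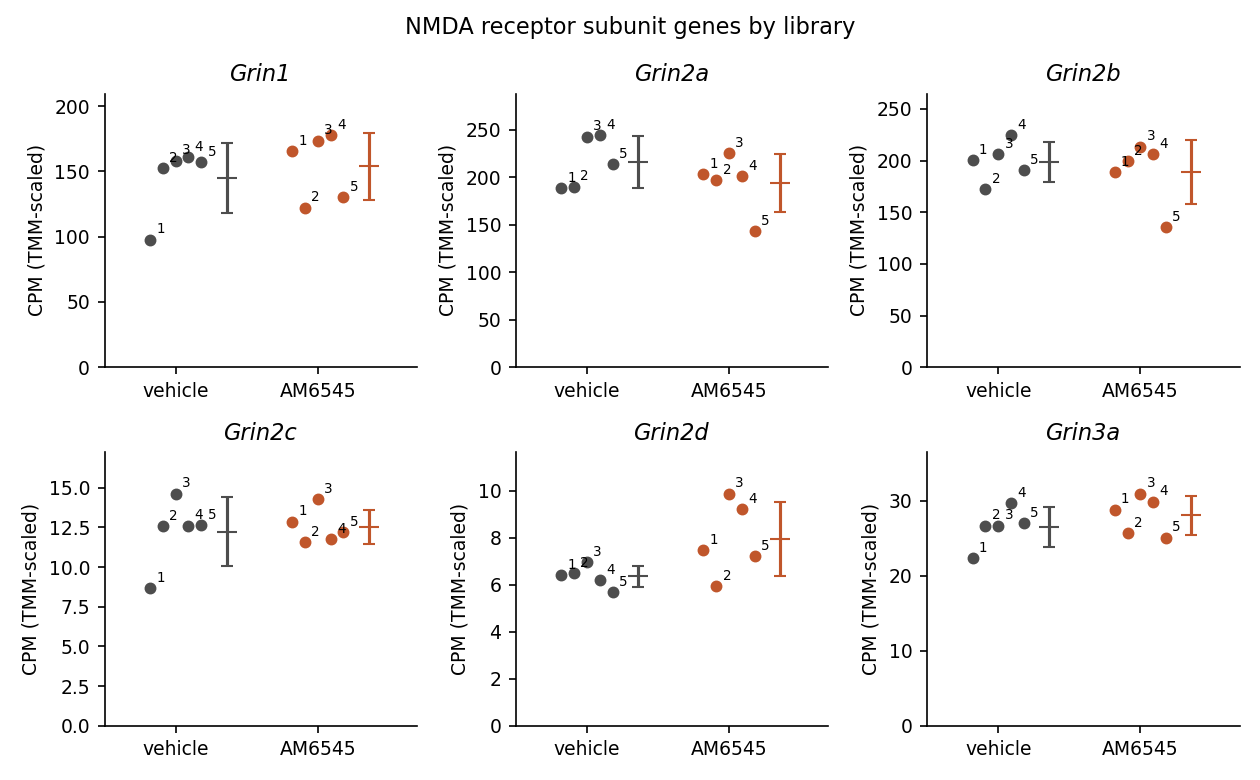
Level of each tested subunit gene in CPM after trimmed-mean scaling (y axis, from 0, a separate scale for each gene) in the 5 vehicle and 5 AM6545 libraries. Each point is a library with its replicate number, and the bar beside it is the mean with its SD; the groups overlap in all 6 panels, with vehicle 1 low for Grin1, Grin2c and Grin3a, AM6545 5 low for Grin2a and Grin2b, and 4 of 5 AM6545 points above the vehicle points for Grin2d.

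To set the subunits beside each other, counts were divided by annotated transcript length and scaled to the same total in every library. On this length-scaled level (scaled like TPM), averaged over all 10 libraries, Grin1 was at 77.6 ± 14.7 and Grin2b at 71.4 ± 10.1 (SD, n = 10). Grin2a followed at 27.7 ± 3.86, Grin3a at 7.21 ± 0.860 and Grin2c at 5.51 ± 0.873. Grin2d was at 2.57 ± 0.543 and Grin3b at 0.0831 ± 0.0955. The obligatory subunit and the 2 main GluN2 genes thus stood well above the other 4 members.

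With all transcripts at their own lengths, the order from Grin2b through Grin3b held in 10 of 10 libraries, whereas Grin1 was above Grin2b in 8 of 10. The ranges over libraries did not overlap between Grin2b and Grin2a, between Grin2a and Grin3a, or between Grin2d and Grin3b. They overlapped between Grin3a and Grin2c and between Grin2c and Grin2d, although each pair kept its order within every library.

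The Grin2b level leaned on 1 very short transcript. Grin2b-207, a noncoding transcript of 241 bases, held 2.04% of the Grin2b counts but 31.9% to 52.8% of the gene's length-scaled level. With protein-coding transcripts only, Grin2b was below Grin1 in all 10 libraries, at a length-scaled level of 39.6 ± 4.85 beside 74.0 ± 14.2 for Grin1 and 26.9 ± 3.79 for Grin2a (SD, n = 10). Grin2b then stood 1.35 to 1.60 times above Grin2a within each library, in place of 1.96 to 3.21 times. The order of the pair depends on the length used: with each gene's longest coding transcript as its length, Grin2a made up 21.7% of the 7 genes and Grin2b 12.6%, and without length scaling they made up 34.4% and 32.6%. The place of Grin1 depends on it too. Without length scaling Grin1 made up 25.1%, below both. With 200 bases taken off each length, down to a set floor that the 241-base Grin2b-207 reached, Grin1 made up 33.9%, beside 48.1% for Grin2b.

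As shares of the summed length-scaled level of the 7 genes, Grin1 made up 39.5% ± 5.60 with vehicle against 40.8% ± 4.85 with AM6545 (SD, n = 5 each). Grin2b made up 37.4% ± 6.42 and 37.4% ± 4.98. Small shares came from Grin3a (3.69% and 3.83%), Grin2c (2.82% and 2.92%) and Grin3b (0.0526% and 0.0334%). The ratio of Grin1 to the summed GluN2 genes was 0.709 ± 0.163 with vehicle against 0.749 ± 0.144 with AM6545 (exact permutation p = 0.675, n = 5 each), with its lowest value, 0.462, in vehicle 1. This ratio includes the noncoding Grin2b-207 and was not computed without it. With protein-coding transcripts only, Grin1 made up 45.9% ± 4.39 with vehicle and 48.5% ± 3.40 with AM6545. Grin2b then made up 26.3% ± 3.29 and 24.9% ± 2.50.

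Grin2a was the one subunit whose share did not overlap between the groups. It was 14.8%, 15.3%, 16.3%, 15.8% and 14.6% in vehicle 1 to 5, and 14.3%, 14.2%, 13.7%, 12.7% and 12.4% in AM6545 1 to 5. Every AM6545 library was below every vehicle library. The means were 15.4% ± 0.685 and 13.5% ± 0.843 (SD, n = 5 each), a difference of -1.91 percentage points with a 95% interval of -3.07 to -0.744. The exact permutation p was 0.00794, the smallest that 5 libraries against 5 allow, and 0.0635 after adjustment over the 8 shares tested, so it missed the threshold. With protein-coding transcripts only the groups overlapped, at 18.3% ± 1.24 and 16.4% ± 1.33 (exact permutation p = 0.0476, adjusted 0.190, n = 5 each). With each gene's longest coding transcript as its length the exact permutation p was 0.0794.

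Set against Grin2b alone, the Grin2a share of their sum was 29.5% ± 3.82 with vehicle against 26.6% ± 2.51 with AM6545 (exact permutation p = 0.190, adjusted 0.508, n = 5 each). Counting only protein-coding transcripts it was 41.1% ± 1.59 and 39.8% ± 0.955 (exact permutation p = 0.151, n = 5 each). The Grin2d share was 1.21% ± 0.158 and 1.47% ± 0.220 (exact permutation p = 0.0714, adjusted 0.286, n = 5 each). The other shares gave exact permutation p-values of 0.389 to 0.952. For Grin3b, where 4 of 5 AM6545 libraries were below all vehicle libraries, the share difference was -0.0192 points (exact permutation p = 0.556), and -0.0467 points without AM6545 3 (exact permutation p = 0.0159, adjusted 0.0635), so that library, with 6 counts, decides the value.

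**Figure D2:**
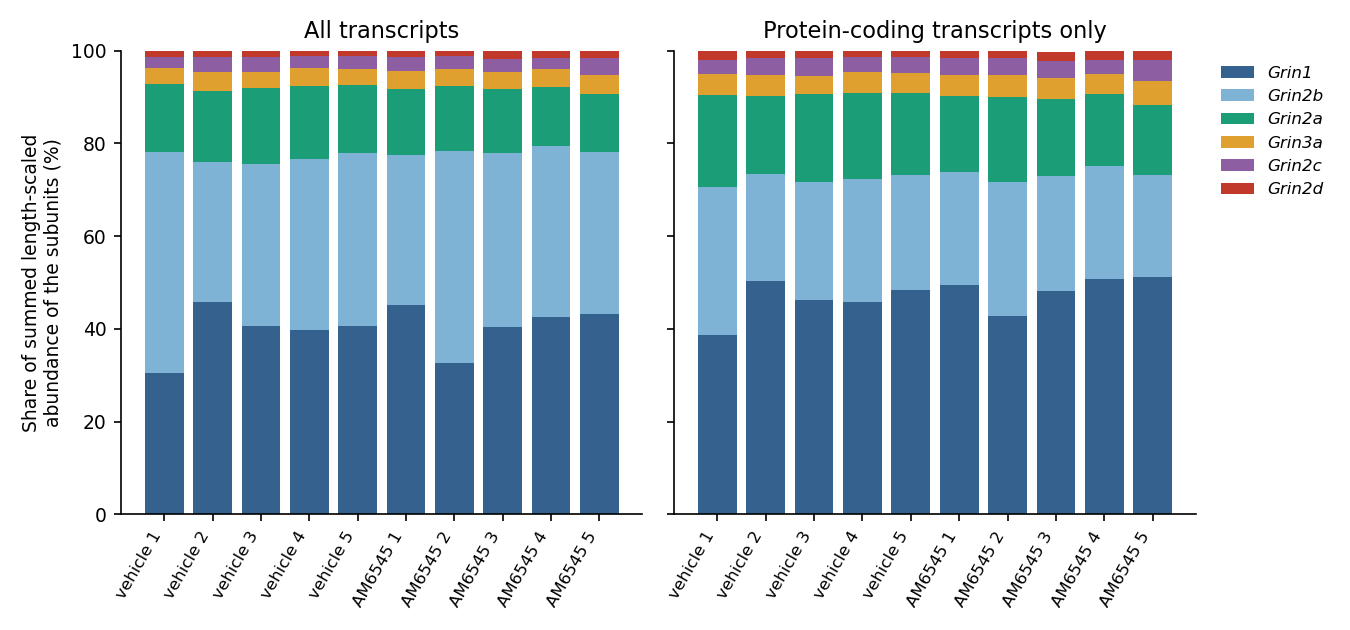
Share of each subunit gene in the summed length-scaled level of the 7 genes (y axis, percent) for each library, with all annotated transcripts on the left and protein-coding transcripts only on the right. Each bar is a library and Grin3b is too small to see; Grin1 averages 40.2% on the left and 47.2% on the right, and Grin2b averages 37.4% on the left and 25.6% on the right.

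The 8 complete Grin1 transcripts are the 8 combinations of N1 present or absent, C1 present or absent, and C2 or C2'. Grin1-205, with neither N1 nor C1 and with the C2' end, held 58.6% of the Grin1 counts over all libraries. Grin1-206, which adds C1 to that form, held 15.6%. The C2-ended forms without N1 held less: 7.09% for Grin1-201 (with C1) and 6.40% for Grin1-202 (without C1). The 3 N1 forms with counts were Grin1-207 (C2', 5.92%), Grin1-204 (C1 and C2, 2.71%) and Grin1-208 (C1 and C2', 2.63%), and Grin1-203 (N1 and C2 without C1) was listed at 0 in all 10 libraries.

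The N1 forms were all-or-none in the transcript estimates. Each library had counts in exactly 1 of them: Grin1-207 in vehicle 1 to 3 and AM6545 1, 2 and 5, Grin1-204 in vehicle 4 and 5, and Grin1-208 in AM6545 3 and 4. Grin1-201 was at 0 in vehicle 4 and 5, the same libraries that held Grin1-204. A reading of whole transcripts would therefore move C1 and the C-terminal end between libraries along with N1, while the N1 sum ran from 7.87% to 12.6% of the Grin1 level. Such estimates split reads among transcripts that share most of their sequence, and the counts of a single N1 form are accordingly uncertain. Grin1-207 had an edgeR log2 fold change of 0.15 with an interval of -3.60 to 3.90, and Grin1-201 of 1.10 with an interval of -1.53 to 3.74. The Grin1-201 estimate was 5.60 under limma-voom (unadjusted p = 0.0032, adjusted 0.994), outside that interval, and 1.85 without vehicle 2.

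Summed over transcripts, the N1 cassette was in 10.1% ± 1.39 of the Grin1 length-scaled level with vehicle against 11.0% ± 1.46 with AM6545 (SD, n = 5 each). The C1 cassette was in 25.4% ± 3.66 and 26.7% ± 1.96. The C2' end was in 82.8% ± 4.42 and 79.0% ± 3.06, and the C2 end in 12.6% ± 5.55 and 16.2% ± 3.80; the remainder lay in noncoding transcripts that hold neither. Most Grin1 RNA of the fraction thus lacked N1 and C1 and ended in C2'. The C1, C2 and C2' sums and their tests depend on which N1 form each library was assigned, and share that uncertainty. None of the 3 tested shares passed the test between the groups: the exact permutation p-values were 0.373 for N1, 0.571 for C1 and 0.190 for C2' (n = 5 each), and 0.560, 0.571 and 0.560 adjusted over the 3. The 95% intervals of the differences were -1.44 to 3.08 points for N1, -2.65 to 5.78 for C1 and -9.73 to 1.84 for C2'. The C2' difference of -3.75 points was -8.79 points (exact permutation p = 0.0317, adjusted 0.0635) without transcripts at 0 in 3 or more libraries, which removes every N1 form, and -2.38 points without vehicle 1.

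The C2' share was 88.3% and 86.9% in vehicle 1 and 3 and between 74.5% and 81.8% in the other 8 libraries. The C1 share was lowest in vehicle 1, at 19.4%, where Grin1 itself was lowest, and 24.0% to 29.2% elsewhere.

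**Figure D3:**
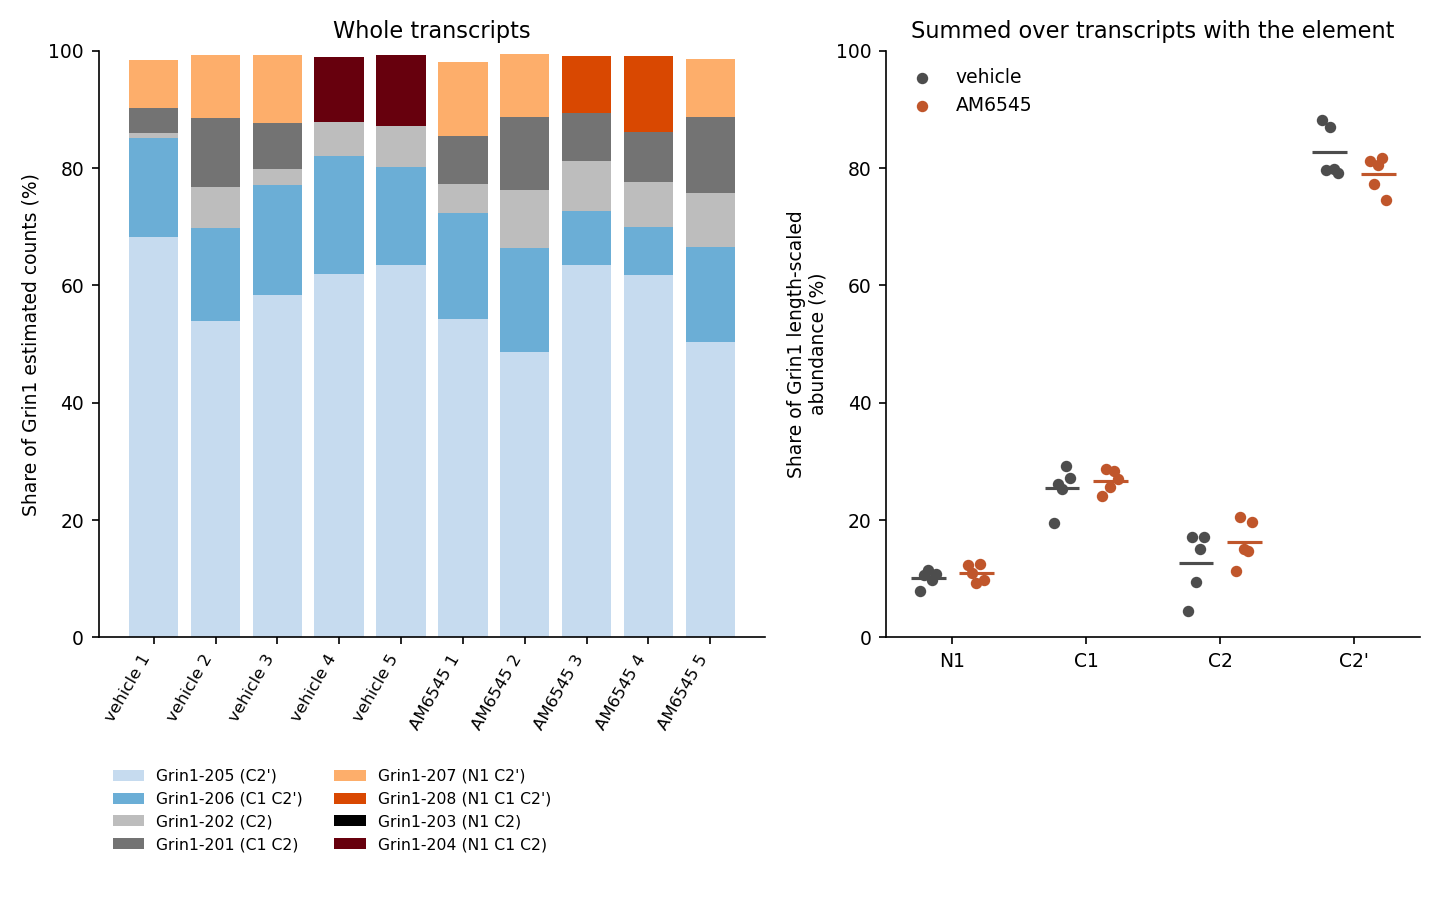
Left, the share of Grin1 estimated counts (y axis, percent) assigned to each complete transcript in each library, with the cassettes of each transcript in the key. Right, the share of the Grin1 length-scaled level (y axis, percent) in transcripts that hold N1, C1, C2 or C2', with 1 point per library and a line at the group mean; the N1 colour changes between libraries on the left while the N1 sum stays at 7.87% to 12.6% on the right.

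Among the other members' main transcripts, Grin2c-202 showed the clearest separation between groups. Grin2c-201 and Grin2c-202 share the same 3717 coding bases and differ in untranslated bases: 758 bases of Grin2c-202 are not in Grin2c-201, and 142 bases of Grin2c-201 are not in Grin2c-202. Grin2c-202 had 3.58, 5.17, 2.40, 2.81 and 4.06 CPM in vehicle 1 to 5 and 0.589, 0.829, 1.89, 1.46 and 0.296 CPM in AM6545 1 to 5. All AM6545 libraries were below all vehicle libraries. As a share of Grin2c counts the transcript made up 16.3% to 41.5% in vehicle and 2.31% to 13.3% in AM6545 libraries. These shares are estimates, since reads from sequence that both transcripts hold were split between them, as for the Grin1 forms.

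The Grin2c-202 log2 fold change was -1.83 (SE 0.468) and an interval of -2.87 to -0.79 (edgeR, unadjusted p = 0.00280, adjusted p = 0.9999), so it did not pass the test over all transcripts. The fit called 1 of 31848 transcripts (0.00314%) at an adjusted p under 0.05, and that transcript was of no subunit gene. At an unadjusted p under 0.05, 278 transcripts (0.873%) were lower in AM6545, and 89 (0.279%) had every AM6545 value under the lowest vehicle value. The counts behind it were small, 45.9 to 107 per vehicle library and 5.70 to 35.0 per AM6545 library. Grin2c-201 had 8.70 ± 2.67 CPM with vehicle against 11.6 ± 0.968 CPM with AM6545 (SD, 5 libraries each), a log2 fold change of 0.41 (SE 0.207, edgeR unadjusted p = 0.0733), and the Grin2c gene total stayed within the vehicle range.

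**Figure D4:**
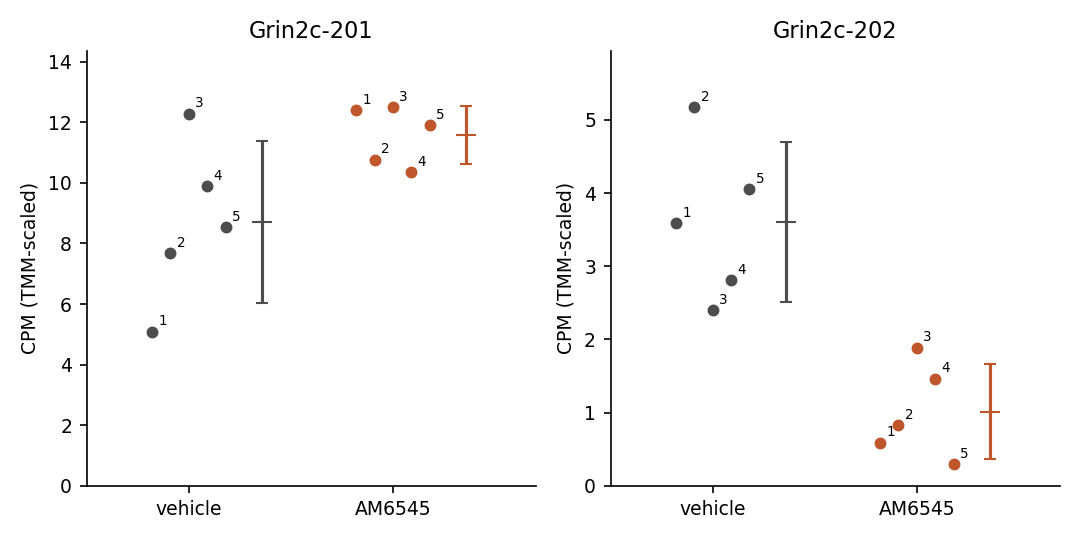
Levels of Grin2c-201 and Grin2c-202 in CPM (y axes, each from 0) in the 5 vehicle and 5 AM6545 libraries, with replicate numbers at the points and the mean with its SD beside them. The Grin2c-202 points of AM6545 (0.296 to 1.89) are all below those of vehicle (2.40 to 5.17), while the Grin2c-201 points overlap.

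Of the remaining main transcripts, those of Grin2a and Grin2b had log2 fold changes near those of their genes. Grin2d-201 was above its gene (0.32) and Grin3a-201 below its gene (0.08). Grin2a-206, of 14634 bases, held 99.3% of the Grin2a counts and had a log2 fold change of -0.15. Grin2b-202 (7484 bases) and Grin2b-201 (24060 bases) share 1 coding sequence, held 66.6% and 31.1% of the Grin2b counts, and had log2 fold changes of -0.07 and -0.11. Grin2d-201 held 94.8% of the Grin2d counts, with a log2 fold change of 0.44 (SE 0.183, interval 0.03 to 0.85). Its edgeR quasi-likelihood test across all transcripts gave an unadjusted p = 0.0367 and an adjusted p = 0.9999. Grin3a-201 held 88.8% of the Grin3a counts, with a log2 fold change of 0.01. Grin3a-202, just under the 10% set for naming, held 9.98% and has 60 coding bases that Grin3a-201 lacks. It was at 0 in 2 libraries, with an edgeR log2 fold change of 0.74 and an interval of -2.02 to 3.51.

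**Figure D5:**
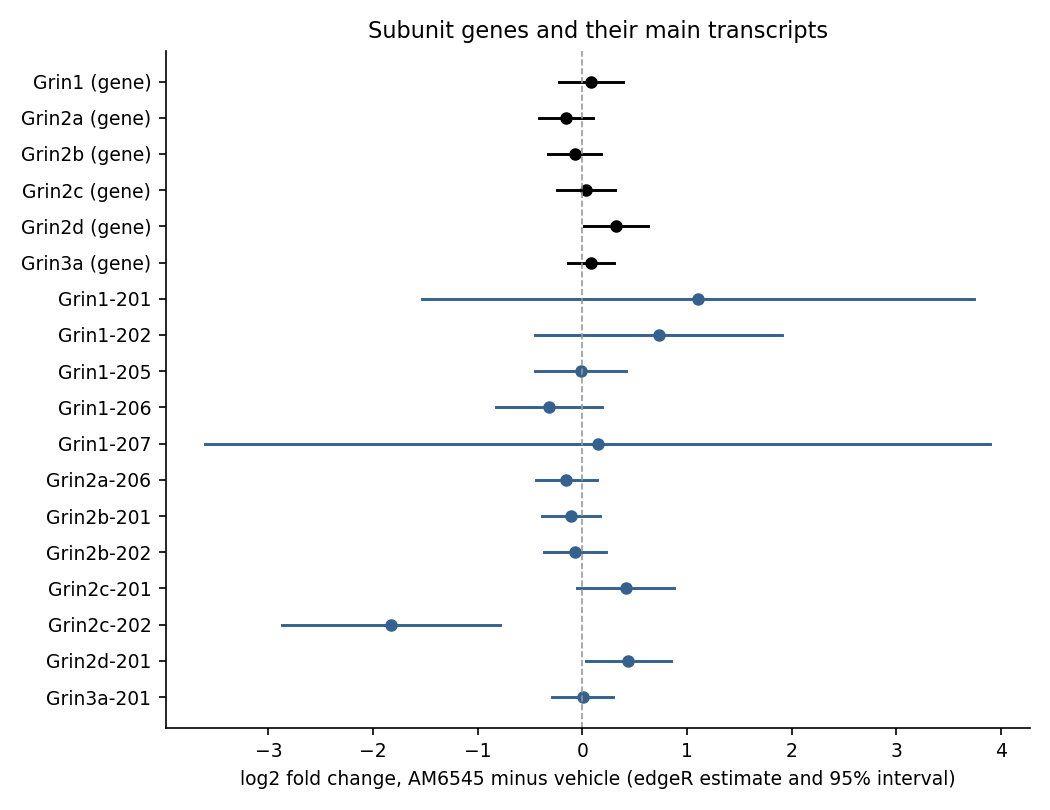
Log2 fold change of AM6545 minus vehicle (x axis) with its 95% interval from edgeR, for the 6 tested subunit genes (black) and the named transcripts that passed the filter (blue). The intervals of the genes are narrow and lie across 0, except that of Grin2d (0.02 to 0.63), just above it. That of Grin2c-202 lies wholly below 0 and that of Grin2d-201 (0.03 to 0.85) wholly above it. Those of Grin1-201 and Grin1-207 are wide, with estimates of 0 in some libraries.

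Some members varied together from library to library. Over the 10 libraries and 15 pairs of tested members, log2 CPM of Grin1 and Grin3a had Pearson's r = 0.929 (permutation p = 6.0e-05, adjusted 0.0009) and Spearman's rho = 0.927 (adjusted permutation p = 0.0042). Without the 2 libraries farthest from the Grin1 median r was 0.882, and within the groups it was 0.923 in vehicle and 0.955 in AM6545 libraries. Grin2a and Grin2b had r = 0.891 (adjusted permutation p = 0.0133) and rho = 0.745 (adjusted permutation p = 0.104), but r was 0.516 without AM6545 5 and vehicle 4, so that relation rests on those libraries. Likewise r for Grin1 and Grin2c was 0.811 (adjusted permutation p = 0.0485), rho was 0.564 (adjusted 0.207), and r was 0.200 without vehicle 1 and AM6545 2. Depth, tissue dissected and base composition are shared within a library and were not separated from these relations.

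Among 14357 other tested genes, those most like each member over the 10 libraries were ranked by Pearson's r, given here without a test. Many genes shared a member's pattern: r was 0.9 or more for 156 genes with Grin1, 43 with Grin2c and 34 with Grin2a. It was so for 16 genes with Grin3a, 15 with Grin2b and 4 with Grin2d. Closest to Grin1 were Atg9a (r = 0.985), Clstn3 (0.982) and Clstn1 (0.981). Closest to Grin2a were Slc4a7 (r = 0.968), Cacna1e (0.949) and the AMPA receptor gene Gria3 (0.949), and closest to Grin2b were Sc5d (0.966), Sptb (0.949) and Unc5c (0.943). Without the 2 libraries farthest from the member's median, r was 0.832 for Sc5d, 0.641 for Sptb and 0.746 for Unc5c, so the likeness of the last 2 to Grin2b leans on those libraries; for the genes listed for the other 5 members it was 0.787 or more. For Grin2c they were Slc35a5 (r = 0.979), Slitrk2 (0.969) and the GABA-A receptor gene Gabrg1 (0.958). Grin2d was most like Emc10 (r = 0.943), Lgmn (0.928) and Trim67 (0.920), and Grin3a was most like Spon1 (0.943), Pcdhb8 (0.936) and Grin1 (0.929).

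The wider NMDA receptor pathway showed no call either. Of 69 listed genes 67 were tested; 40 had a log2 fold change above 0, 0 had an edgeR adjusted p under 0.05, and 0 had an unadjusted p under 0.05. Their median log2 fold change was 0.03, beside -0.01 over all tested genes. By list, 9 of 14 genes of coagonist supply were above 0 (median 0.09), as were 10 of 15 scaffolds (0.03), 4 of 10 transport genes (-0.01), 12 of 16 kinases and phosphatases (0.03) and 5 of 12 genes of calcium signalling (-0.02).

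Slc6a9, the GlyT1 transporter that clears the coagonist glycine, had 18.3 ± 4.64 CPM with vehicle against 23.0 ± 4.27 CPM with AM6545 (SD, 5 libraries each), a log2 fold change of 0.33 (SE 0.174, edgeR unadjusted p = 0.0713). It was 0.19 without vehicle 1, and its unadjusted edgeR p was 0.0400 without vehicle 5 and 0.0389 without AM6545 2. Srr, the enzyme that makes D-serine, had a log2 fold change of 0.03. Dlg4, which encodes the scaffold PSD-95 that anchors GluN2 tails, was at 0.11 (standard error 0.099). Camk2a, the kinase that binds GluN2B, was at 0.08, and Fyn, which phosphorylates GluN2B, at 0.05. The opposing phosphatases Ptpn5 and Ppp3ca were at 0.03 and -0.04, and Nos1, the nitric oxide synthase tethered to the receptor by PSD-95, was at 0.19 (standard error 0.118). With all 10 libraries and no replicate block none of these 8 genes had an unadjusted p under 0.05. With the replicate block that of Slc6a9 was 0.0496, and without AM6545 3 that of Nos1 was 0.0392 (edgeR).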

How the data were processed

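Per the labels, total RNA of hippocampal synaptoneurosomes was made into libraries with a low-input SMARTer kit. The authors deposited estimated counts per gene and per transcript; the submitters' processing notes name Salmon 1.5.2 and mm10, and the annotation release and use of strand are not given in the sources used here. The members, gene lists and tests were chosen with earlier results of these data known.

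Estimated counts were rounded to whole numbers, filtered with filterByExpr (minimum count 10) and tested on all 10 libraries with edgeR 4.0.16 (R 4.3.3; trimmed-mean scaling, robust quasi-likelihood test, Benjamini-Hochberg adjustment over all tested genes or transcripts, threshold 0.05). DESeq2 1.42.0 and limma 3.58.1 served as alternatives. CPM values are edgeR's. The edgeR fit of genes was tested on simulated counts. Groups came from the titles. Names, lengths and coordinates came from GENCODE M21 by identifier without version (22155 of 22255 genes; 101527 of 102392 transcripts have a length; only 11 gene identifiers carry the same version as M21). Shares were compared by two-sided exact permutation tests, with intervals obtained by inverting that test, and correlations by 100000 permutations. Exact tests with 5 libraries against 5 cannot go below 0.00794. All 7 members are named, with Grin1 transcripts of at least 1% and other transcripts of at least 10% of their gene's counts, 9 pathway genes (1 of them is not reported here), and the 3 genes most like each member. The few Grin3b transcripts are described at the gene level. Depth intervals were not computed for estimated counts. No protein sequence was used here. Alternatives covered scaling, filter, test, transcript length, transcripts used, a replicate block and leaving out each library.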

Additional observations from a re-analysis of the deposited data

Results flagged for a closer look

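Of 36 groups of values examined for a library that stands apart from its group (Dixon's criterion, under which chance alone gives about 1.8), 3 did so. Grin1 in vehicle 1 was 97.6 CPM, while the other 4 vehicle libraries ran from 153 to 161 CPM. Grin3b in AM6545 3 was 0.331 CPM, while the other 4 AM6545 libraries ran from 0 to 0.0777 CPM. The Grin3b share of the summed subunit level in AM6545 3 was 0.143%, beside 0 to 0.0237% in the other 4, and it rests on the same 6 counts.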

How the results depend on the processing

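The count of genes past the adjusted threshold was 0, and 1 with limma-voom (no subunit gene); it ran from 0 to 1 when a library was left out. The count of transcripts was 1, with 11 under the DESeq2 Wald test, 0 under limma-voom, 2 without a filter, 0 with at least 10 counts in every library and 0 with the replicate block, and it ran from 0 to 4 when a library was left out. Grin2c (log2 fold change) turned to -0.0659 under limma-voom. Grin3a-201 turned to -0.0032 with DESeq2 size factors, -0.0034 under the DESeq2 Wald test, -0.0240 under limma-voom and -0.0019 without a filter. The Grin2b share difference turned to -0.789 points without length scaling, -1.49 with protein-coding transcripts only and -0.927 with the longest transcript's length; the cause was not tested for these.

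With 1 library left out at a time, the log2 fold changes ran from -0.0295 to 0.157 for Grin1, -0.122 to 0.0242 for Grin2b, -0.0652 to 0.106 for Grin2c, -0.121 to 0.0928 for Grin1-205, -0.395 to 0.629 for Grin1-207, -0.121 to 0.0363 for Grin2b-202 and -0.0540 to 0.0557 for Grin3a-201. They ran from -0.0240 to 0.0827 for Srr, -0.0143 to 0.0810 for Fyn, -0.0260 to 0.106 for Ptpn5, -0.0809 to 0.0065 for Ppp3ca and -0.0126 to 0.137 for Camk2a. The share differences ran from -0.909 to 3.38 points for Grin1, -1.97 to 2.63 for Grin2b, -0.0495 to 0.224 for Grin2c -0.184 to 2.26 for C1, -4.66 to -2.38 for C2' and -0.0467 to -0.00717 for Grin3b. The Grin2a share difference stayed between -2.11 and -1.65 points and the Grin2c-202 log2 fold change between -2.18 and -1.60. The adjusted p of Grin2c-202 was 0.226 under the DESeq2 Wald test and 0.746 or more under every other alternative that gave one.

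Replicate numbers were shared by the groups, but the deviations of same-numbered libraries correlated above 0.1 in 2 of 5 pairs, and 2 of 5 AM6545 libraries correlated best with their own number, so the numbers were not taken to pair the samples. With the replicate block, 0 genes and 0 transcripts passed; the Grin2d estimate was 0.31 on the log2 scale (edgeR unadjusted p = 0.0546), and other estimates were -2.03 for Grin2c-202 (unadjusted p = 0.0138), 2.65 for Grin1-201 and 0.36 for Slc6a9 (unadjusted p = 0.0496), and the paired exact permutation p of the Grin2a share was 0.0625, the smallest that 5 pairs allow. The N1 and Grin3b shares could not be given without transcripts at 0 in 3 or more libraries, nor splice shares with 1 length per gene. Low counts limit Grin3b and Grin2c-202.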
